A study of Mus musculus with 18 samples.

Results

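The comparison described here asks whether 48 h of doxycycline changed gene expression differently in MC38 cells with and without Apc. The 48 h response was the log2 fold change against untreated cells of the same Apc genotype. For every gene the response of APC-intact cells was subtracted from that of APC-deleted cells. A positive difference means a larger rise or a smaller fall in APC-deleted cells. It used 12 of the 18 libraries of the series, 3 in each of 4 groups, and 15006 of the 39179 genes in the files had counts high enough to be tested. Of these, 4 genes (0.0267%) differed in their response by edgeR at an adjusted p under 0.05. The response in APC-deleted cells was higher for 3 (0.0200%) and lower for 1 (0.00666%).

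MC38 is a colon adenocarcinoma line from C57BL6 mice. The first group was MC38 without doxycycline, and the second was MC38 with an inducible hairpin against Tdo2 (ishTDO2) after 48 h of 1 µM doxycycline. The third was the MC38APC line, in which Apc is knocked out, without doxycycline, and the fourth was its hairpin line after 48 h at the same dose. All cells grew in the same tetracycline-screened serum. The titles name the hairpin only for treated libraries while the protocol describes hairpin cells with and without the drug, so it is not known here if the untreated cells held it. No treated group lacked the hairpin, so the effects of Tdo2 knockdown and of doxycycline itself cannot be told apart. Each genotype is a single line, so the effect of Apc and of other differences between the lines cannot be told apart. The labels speak of biological triplicates but name no separate cultures or passages. The p-values therefore weigh differences only against the variation among these libraries, part of which may be technical.

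APC is the scaffold of the complex that marks beta-catenin for destruction, and its loss is a common early event in colon tumours. TDO2 opens the tryptophan ring on the way to kynurenine, a ligand of the aryl hydrocarbon receptor. Chemokines such as CXCL1 draw neutrophils or monocytes and are classic targets of NF-kB, while interferon-stimulated genes are switched on by interferons and many of them restrict viruses. TIMP1 blocks matrix metalloproteinases. Promoters of genes in these groups often carry short motifs for the factors named.

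The sequences of 3 promoters are shown because Cxcl1 is among the 4 genes whose response differed and Isg15 and Ifit3 fell in both lines. They are the 250 bases before the RefSeq transcription start on GRCm38.p6, read 5′ to 3′ on the gene's own strand. Capitals mark matches, on either strand, to an NF-kB-type motif (GGGA, any 2 bases, then TTCC) in Cxcl1 and to an interferon-response-type motif (GAAA, any 2 bases, then GAAA) in Isg15 and Ifit3.
Cxcl1, chr5:90890995-90891244, plus strand: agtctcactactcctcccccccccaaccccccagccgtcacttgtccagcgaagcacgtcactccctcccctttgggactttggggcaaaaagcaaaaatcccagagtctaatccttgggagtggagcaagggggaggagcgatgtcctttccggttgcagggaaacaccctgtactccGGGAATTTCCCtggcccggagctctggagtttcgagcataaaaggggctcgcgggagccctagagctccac
Isg15, chr4:156200819-156201068, minus strand: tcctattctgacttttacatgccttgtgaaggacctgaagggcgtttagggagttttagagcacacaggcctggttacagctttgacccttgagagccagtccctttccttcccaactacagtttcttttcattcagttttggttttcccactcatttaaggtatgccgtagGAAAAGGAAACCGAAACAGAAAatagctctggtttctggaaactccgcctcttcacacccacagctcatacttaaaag
Ifit3, chr19:34583279-34583528, plus strand: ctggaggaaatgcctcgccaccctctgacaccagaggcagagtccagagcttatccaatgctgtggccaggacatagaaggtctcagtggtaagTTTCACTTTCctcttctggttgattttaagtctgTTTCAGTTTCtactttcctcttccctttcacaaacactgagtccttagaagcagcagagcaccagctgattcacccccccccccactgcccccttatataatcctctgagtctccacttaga

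In Cxcl1 the capitals hold 2 overlapping matches, one per strand, the first starting 71 bases before the transcription start. In Isg15 they hold 3 overlapping matches that start 78, 72 and 66 bases before it, and in Ifit3 the 2 matches start 156 and 122 bases before it. The NF-kB-type motif was in 7 of the 16 chemokine and growth factor genes matched in the RefSeq table (43.8%), in 2 of 19 genes of the NF-kB and acute phase list (10.5%), in 2 of 31 interferon-stimulated genes (6.45%) and in 368 of all 27018 promoters (1.36%). The interferon-response-type motif was in 13 of the 31 interferon-stimulated genes matched (41.9%), in 1 of 16 chemokine genes (6.25%), in 1 of 19 NF-kB genes (5.26%) and in 936 of all promoters (3.46%). These shares describe letters only. Timp1 (chrX:20869916-20870165, plus strand) and Bcl2l15 (chr3:103832446-103832695, plus strand) held neither motif in the same window. Mx2 had no entry in the RefSeq table, so its promoter was not searched.

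Before the responses are compared, the libraries need a few facts. The 12 libraries held 76705116 to 97728594 gene counts, with a common biological coefficient of variation of 8.33% in edgeR's model of all 18. In a principal component analysis of the 12, the first component (51.3% of variance) parted the lines and the second (13.2%) parted untreated from treated libraries. APC-deleted 48 h replicate 2 stood apart on the third (6.51%) with a score of 37.5, against -19.6 to 7.97 in the others. The deposited files carry 1 designation for the untreated libraries of both lines and another for the 48 h libraries of both lines, with no meaning given. A shift between designations that is equal in both lines cancels in the difference of responses, but within either line it cannot be told apart from the treatment. Reads in no annotated gene took 5.25 to 6.12% of each untreated and 6.27 to 7.01% of each 48 h APC-intact library, and 4.70 to 4.99% and 5.25 to 6.10% in APC-deleted cells. Their part in the results was not tested.

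Epithelial markers were low or near absent in these carcinoma cells. Epcam reached at most 0.0114 CPM, while Krt8 reached 3.87, Cdh1 1.89 and Cldn4 1.17 CPM. The summed level of the 10 epithelial markers lay between 3.35 and 6.41 CPM in the 12 libraries. The 10 fibroblast markers summed to 2753 to 4679 CPM, with Col1a1, Col1a2, Col3a1 and Dcn among the high members. Thy1 reached at most 0.0108 CPM, Fap 0.355 CPM and Lum 1.21 CPM. Of 10 haematopoietic markers, Emr1 had no count in any library and Ptprc at most 0.0413 CPM. The list summed to 24.7 to 37.3 CPM, nearly all from Cd14 and Cd68. It was 32.5 to 35.5 CPM in untreated and 26.7 to 27.3 at 48 h in APC-intact cells, and 33.2 to 37.3 and 24.7 to 29.7 in APC-deleted cells. The 8 endothelial markers summed to 3.05 to 6.34 CPM, with Emcn at no count. CPM are gene counts scaled to library size with TMM factors.

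The targeted gene was counted too rarely for a close check. Tdo2 was counted 26, 22 and 16 times in untreated and 20, 22 and 29 times in 48 h APC-intact libraries, which is 0.17 to 0.31 CPM. In APC-deleted libraries it was counted 27, 6 and 13 times untreated and 8, 7 and 13 times at 48 h, or 0.062 to 0.29 CPM. Treated and untreated counts overlapped in both lines. In APC-intact libraries the treated range (20 to 29) lay no lower than the untreated one (16 to 26). The difference of responses was -0.77 ± 0.686 (log2 ± SE, n = 3 per group; edgeR quasi-likelihood test with Benjamini-Hochberg adjustment, adjusted p = 0.880), with a 95% interval from -2.20 to 0.67, so a difference of several-fold was not detectable at this depth. Without APC-deleted untreated replicate 1 it was -0.09. For Apc the level was 116, 95.9 and 123 CPM in untreated APC-intact and 74.0, 79.5 and 72.2 CPM in untreated APC-deleted libraries. At 48 h it was 144, 131 and 142 CPM against 89.8, 73.9 and 88.4 CPM. Every APC-deleted library was below every APC-intact one, although transcripts of the deleted gene were still counted. Its 48 h response did not differ detectably between lines (-0.16 ± 0.174, 95% interval -0.53 to 0.21, edgeR adjusted p = 0.905).

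Most genes called in one line had the same sign of response in the other. After 48 h, 1703 genes (11.3%) had changed in APC-intact cells, 572 higher (3.81%) and 1131 lower (7.54%), and 1653 (11.0%) in APC-deleted cells, 679 higher (4.52%) and 974 lower (6.49%), by edgeR at an adjusted p under 0.05. Leaving out 1 library moved these counts widely. Without APC-deleted 48 h replicate 2 they were 2845 and 2816. The APC-intact count was 822, 901, 853, 1124 and 848 without APC-intact untreated replicates 1 and 2 and 48 h replicates 1, 2 and 3, and the APC-deleted count was 882, 1032 and 1114 without APC-deleted untreated replicates 1 and 2 and 48 h replicate 3. Both lines called 782 genes, of which 229 rose in both, 552 fell in both and 1 moved in opposite directions. Shared genes were 45.9% of the APC-intact and 47.3% of the APC-deleted calls. Of the 921 genes called in APC-intact cells alone, 874 had the same sign in APC-deleted cells, and of the 871 called in APC-deleted cells alone, 800 had the same sign in APC-intact cells. Being called in one line and not in the other is no test of a difference.

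The size of a possible difference was bounded for most genes. Of the 10170 genes with a mean of at least 5 CPM in 1 of the 4 groups, 9603 (94.4%) had a 95% interval of the difference that lay within 1.5-fold in either direction, and 10085 (99.2%) one within 2-fold. The median half-width of these intervals was 0.20 on the log2 scale. Over all genes tested, the median difference was 0.00, with quartiles at -0.10 and 0.11. Across the 10170 genes the responses of the lines correlated with Pearson's r = 0.68 and Spearman's rho = 0.70, where genes are not independent replicates and both lines share any shift between designations. At an unadjusted p under 0.05 there were 1051 genes (7.00%), 587 with a higher (3.91%) and 464 with a lower value in APC-deleted cells (3.09%).

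**Figure D1:**
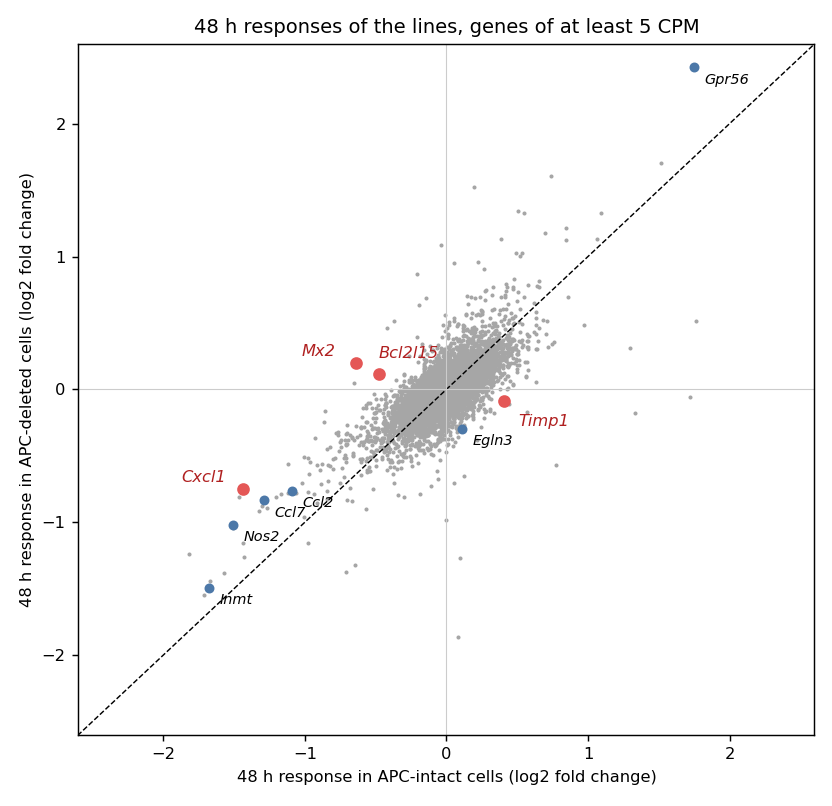
The 48 h response of APC-deleted cells (vertical, log2 fold change) against that of APC-intact cells (horizontal) for 10168 genes of at least 5 CPM, with 2 more beyond the axes. Red marks the 4 genes whose responses differed, blue marks others named in the text, and the dashed line marks equal responses: Mx2, Bcl2l15 and Cxcl1 lie above it and Timp1 below.

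Mx2, an interferon-induced gene of the dynamin-like GTPase family, fell in APC-intact cells and did not fall in APC-deleted cells. The gene is listed at chr16:97536083-97560899 (mm10, plus strand), and GENCODE types it as a polymorphic pseudogene. Its level was 7.75, 8.75 and 7.94 CPM in untreated and 5.56, 5.06 and 5.07 CPM in 48 h APC-intact libraries. In APC-deleted libraries it was 4.76, 5.70 and 5.84 CPM untreated and 5.85, 6.59 and 6.23 CPM at 48 h. The APC-intact groups were fully apart, whereas the lowest APC-deleted 48 h library was only just above the highest untreated one. The response was -0.64 ± 0.090 in APC-intact cells (edgeR adjusted p = 7.95e-05) and 0.20 ± 0.090 in APC-deleted cells (adjusted p = 0.176), a difference of 0.83 ± 0.127 (95% interval 0.57 to 1.10, edgeR adjusted p = 0.0361).

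Cxcl1, which encodes a neutrophil-attracting chemokine, fell in both lines and fell less in APC-deleted cells. It lies at chr5:90891241-90893115 (mm10, plus strand). APC-intact libraries had 418, 416 and 385 CPM untreated and 152, 137 and 162 CPM at 48 h. APC-deleted libraries had 320, 331 and 287 CPM untreated and 195, 190 and 173 CPM at 48 h. Untreated APC-intact cells were the highest and 48 h APC-intact cells the lowest of the 4 groups, and no groups overlapped. The treated level was 0.37 times the untreated one in APC-intact and 0.59 times in APC-deleted cells. On the log2 scale the responses were -1.44 ± 0.081 (edgeR adjusted p = 8.76e-10) and -0.75 ± 0.080 (adjusted p = 6.15e-06), and the difference was 0.68 ± 0.113 (95% interval 0.45 to 0.92, adjusted p = 0.0361).

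Bcl2l15, a BCL2-like gene at chr3:103832601-103854618 (mm10, plus strand), fell in APC-intact cells alone among the calls, and its response differed between lines. Its level was 6.79, 7.33 and 6.83 CPM in untreated and 5.54, 4.73 and 4.80 CPM in 48 h APC-intact libraries. It was 14.7, 15.5 and 15.4 CPM in untreated and 16.4, 16.3 and 16.7 CPM in 48 h APC-deleted libraries. All APC-deleted libraries were at more than double the level of the other line before and after treatment, and within each line the treated and untreated libraries did not overlap. The responses were -0.48 ± 0.074 (edgeR adjusted p = 0.000249) and 0.11 ± 0.069 (adjusted p = 0.313), with a difference of 0.59 ± 0.101 (95% interval 0.38 to 0.80, adjusted p = 0.0452). It was the only one of 17 tested BCL2 family genes that edgeR called, and the median difference of that list was 0.00. Bnip3 had the lowest difference of the list (-0.49) and was called by DESeq2 (adjusted p = 0.0187). Bcl2, the founding survival gene of the family, rose in both lines (0.36 ± 0.065 and 0.25 ± 0.066).

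Timp1, the secreted inhibitor of matrix metalloproteinases, was the single gene that edgeR called with a lower response in APC-deleted cells. The gene lies at chrX:20870166-20874735 (mm10, plus strand) and overlaps Syn1 on the other strand. Since the use of strand in counting is not given, its reads and those of Syn1 may not be told apart. APC-intact libraries had 54.9, 57.1 and 54.2 CPM untreated and 71.5, 76.8 and 71.7 CPM at 48 h. APC-deleted libraries had 41.3, 39.2 and 38.5 CPM untreated and 35.2, 40.6 and 36.2 CPM at 48 h. All 48 h APC-intact libraries were above the untreated ones, while the APC-deleted groups overlapped. Timp1 rose by 0.41 ± 0.057 in APC-intact cells (edgeR adjusted p = 7.64e-05), against -0.09 ± 0.057 in APC-deleted cells (adjusted p = 0.348), and the difference was -0.49 ± 0.080 (95% interval -0.66 to -0.33, adjusted p = 0.0361). Among 24 tested metalloproteinases and inhibitors it was the only call, with a list median of 0.05. Timp2, a related inhibitor, had a difference of -0.12 ± 0.066 (edgeR adjusted p = 0.770).

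**Figure D2:**
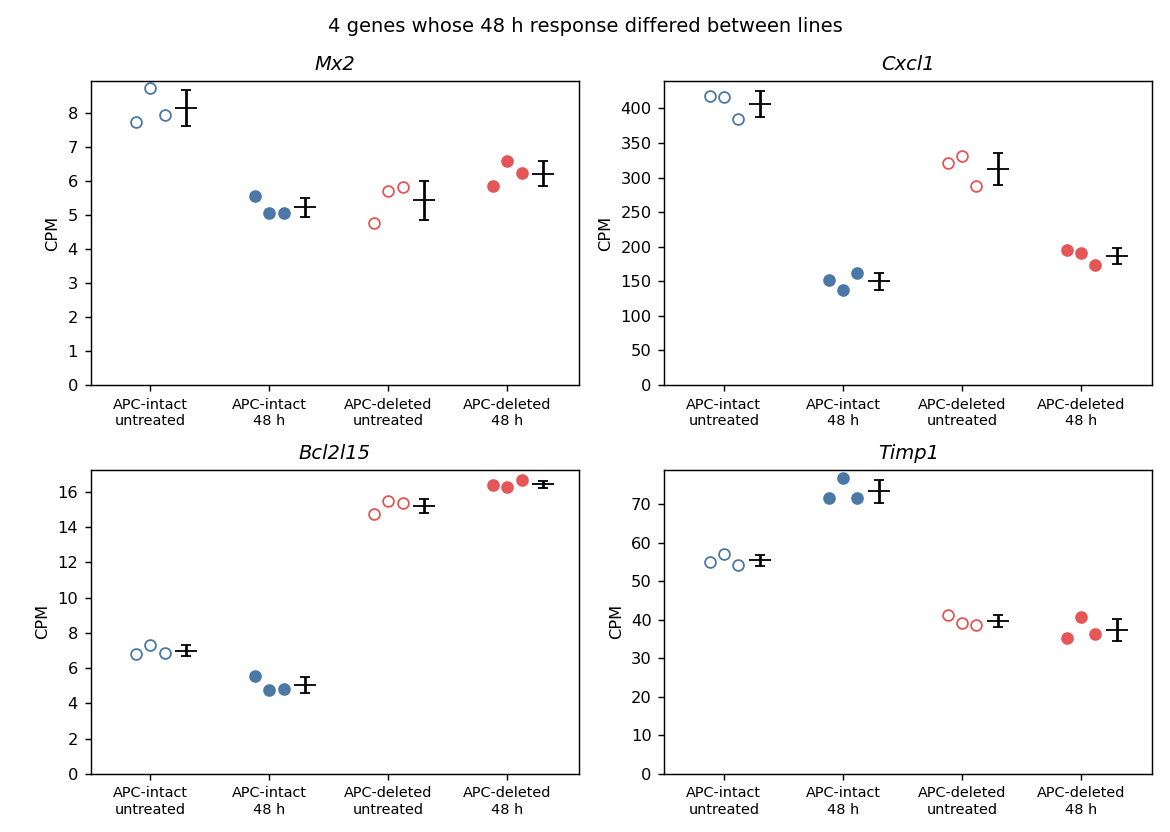
Level in CPM of the 4 genes whose 48 h response differed between lines, with 1 point per library, open for untreated and filled for 48 h, and a black bar with the mean and SD of 3 libraries. Mx2 and Bcl2l15 fell in APC-intact cells only by the calls, Cxcl1 fell more in APC-intact cells, and Timp1 rose in APC-intact cells.

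These calls sat close to the threshold of 0.05 and depended on having all libraries. The gene just inside was Bcl2l15 (edgeR adjusted p = 0.0452) and the one just outside was Egln3 (0.0926). Without 1 library at a time, the count of calls was 3 without APC-intact untreated replicate 3, 3 without APC-deleted 48 h replicate 2, 2 without APC-deleted untreated replicate 3 and 2 without APC-intact 48 h replicate 1. It was 0 without any of the other 8 libraries. In the order given, 2, 2, 1 and 2 of these calls were among the 4 genes, and the rest were other genes. Mx2 was called in 4 of the 12 fits without 1 library, and Cxcl1, Bcl2l15 and Timp1 in 1 each. The differences themselves stayed between 0.74 and 0.89 for Mx2, 0.62 and 0.73 for Cxcl1, 0.54 and 0.66 for Bcl2l15 and -0.57 and -0.46 for Timp1. Fitting the 12 libraries without the 24 h groups gave 0 calls, with 1093 genes at an unadjusted p under 0.05, and the smallest adjusted p was 0.0599. DESeq2 called 56 of 12986 genes with an adjusted p (0.431%), 41 with positive (0.316%) and 15 with negative differences (0.116%), and these included all 4.

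Genes other than these 4, Tdo2 and Apc were chosen for mention after their values were seen. Chemokines and myeloid growth factors fell in 18 of 24 tested genes in APC-intact and in 11 of 24 in APC-deleted cells, and rose in 0 in either. Of all genes tested, 7.54% fell and 3.81% rose in APC-intact cells, and 6.49% fell and 4.52% rose in APC-deleted cells. The median response of the list was -0.79 in APC-intact and -0.36 in APC-deleted cells, against 0.00 in both for all genes tested. The difference was positive in 22 of 24 members, with a median of 0.36, against 7680 of 15006 genes (51.2%) and a median of 0.00 overall. The edgeR test called 1 of the 24 differences (Cxcl1), and 13 had an unadjusted p under 0.05, all positive. Among all genes tested 3.91% were positive at that level. Without APC-deleted 48 h replicate 2 the list median was 0.29. The summed haematopoietic markers given above were also lower at 48 h than untreated in both lines. That sum was nearly all Cd14 and Cd68, with Ptprc at most 0.0413 CPM, and its part in this result was not tested. In bulk RNA, fewer cells of a type and less RNA per cell cannot be told apart.

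Among monocyte chemokines, Ccl2 had 1709, 1795 and 1664 CPM in untreated and 797, 832 and 795 CPM in 48 h APC-intact libraries. In APC-deleted libraries it had 2210, 2459 and 2137 CPM untreated and 1338, 1439 and 1231 CPM at 48 h. It fell in both lines without overlap, by 1.09 and 0.76 on the log2 scale, and the difference of 0.33 ± 0.095 was not called (edgeR adjusted p = 0.392). Its neighbour in function Ccl7 fell by 1.29 and 0.84, with a difference of 0.45 ± 0.109 (adjusted p = 0.217). The interferon-induced T cell chemokine gene Cxcl10 fell in APC-intact cells (-0.64 ± 0.089) and had -0.27 ± 0.089 in APC-deleted cells (edgeR adjusted p = 0.0558), with a difference of 0.37 ± 0.126 (adjusted p = 0.521).

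Csf1, the macrophage growth factor gene, had 522, 505 and 499 CPM in untreated and 411, 398 and 388 CPM in 48 h APC-intact libraries. For APC-deleted cells the values were 560, 613 and 601 CPM untreated and 584, 575 and 542 CPM at 48 h. The APC-intact groups were apart and the APC-deleted groups overlapped. Csf1 fell by 0.35 in APC-intact cells, and the difference was 0.29 ± 0.073 (edgeR adjusted p = 0.248). Csf2, the granulocyte-macrophage factor gene, fell by 1.23 in APC-intact cells and had -0.21 ± 0.182 in APC-deleted cells, a difference of 1.01 ± 0.256 at under 5 CPM (edgeR adjusted p = 0.248). Csf3, the granulocyte factor gene, fell by 1.82 and 1.24. Lif, a cytokine of the interleukin 6 family, fell by 0.67 and 0.36, with a difference of 0.31 ± 0.072 (adjusted p = 0.202).

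Genes of the NF-kB and acute phase list fell in 19 of 26 in APC-intact and 9 of 26 in APC-deleted cells and rose in 0 in either. Of all genes tested, 7.54% and 6.49% fell and 3.81% and 4.52% rose. The median responses of the list were -0.38 and -0.14. Differences were positive in 24 of 26 with a median of 0.29, against 51.2% positive among all genes tested, and edgeR called 0. An unadjusted p under 0.05 was found for 15, 14 positive and 1 negative (Steap4, under 1 CPM in every library). Among all genes tested 3.91% were positive and 3.09% negative at that level. Nos2, the inducible nitric oxide synthase, had 78.6, 68.0 and 81.0 CPM in untreated and 27.9, 25.4 and 26.7 CPM in 48 h APC-intact libraries. In the APC-deleted line the level was 63.4, 76.2 and 64.4 CPM untreated and 33.3, 34.3 and 33.1 CPM at 48 h. Untreated groups overlapped between the lines, whereas every treated APC-deleted library was above every treated APC-intact one. Nos2 fell by 1.51 and 1.02, and the difference was 0.49 ± 0.110 (edgeR adjusted p = 0.174).

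Feedback genes of NF-kB gave examples of a fall called in APC-intact cells and not in APC-deleted cells, which is no test of the difference. Tnfaip3, which encodes the inhibitor A20, fell by 0.27 in APC-intact cells and had 0.07 ± 0.052 in APC-deleted cells, a difference of 0.33 ± 0.074 (edgeR adjusted p = 0.174). Nfkbia, which encodes the inhibitor that holds NF-kB in the cytoplasm, fell by 0.43 and had -0.12 ± 0.065. Irf1, a transcription factor induced by interferon gamma and NF-kB, fell by 0.39 in APC-intact cells and had 0.00 ± 0.061 in APC-deleted cells, with a difference of 0.39 ± 0.087 (edgeR adjusted p = 0.174). Its gene overlaps Gm17334 on the other strand. The acute phase genes Saa3 (-1.51 and -1.04), Lcn2 (-1.17 and -0.79) and C3 (-1.12 and -0.78) fell in both lines.

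Interferon-stimulated genes fell in 39 of 43 in APC-intact and 28 of 43 in APC-deleted cells, and 0 rose. Of all genes tested, 7.54% and 6.49% fell and 3.81% and 4.52% rose. The median response of the list was -0.57 against -0.34. Differences were positive in 41 of 43, with a median of 0.27, and edgeR called 1 (Mx2). A further look at the unadjusted p of edgeR found 24 under 0.05, all positive. The shares over all genes tested were 51.2% positive and 3.91% positive with an unadjusted p under 0.05. The list median of the difference between lines was -0.01 in untreated cells and 0.26 at 48 h. Relative to each gene's mean over the 12 libraries, the median log2 level of the list was 0.21 to 0.28 in untreated APC-intact and 0.12 to 0.28 in untreated APC-deleted libraries. At 48 h it was -0.40 to -0.33 in APC-intact and -0.18 to -0.07 in APC-deleted libraries. The untreated lines overlapped and the treated lines did not. The list median stayed between 0.20 and 0.29 when each library was left out in turn.

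Irf7, a transcription factor that amplifies the interferon response, had 77.9, 77.4 and 75.3 CPM in untreated and 38.1, 35.9 and 40.6 CPM in 48 h APC-intact libraries. The level in APC-deleted cells was 70.5, 77.2 and 81.5 CPM untreated and 53.9, 57.2 and 50.0 CPM at 48 h. The untreated lines overlapped, and all treated APC-deleted libraries were above all treated APC-intact ones. Irf7 fell by 1.01 and 0.51, with a difference of 0.50 ± 0.102 (edgeR adjusted p = 0.131). The gene overlaps Phrf1 on the other strand, which leaves its reads uncertain.

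Other members showed the range of the group. Ifit3, an antiviral gene that can share reads with its near copy Ifit3b, fell by 1.46 and 0.81, a difference of 0.65 ± 0.171 (edgeR adjusted p = 0.327). Oasl2, an oligoadenylate synthetase-like gene, fell by 0.78 and 0.33, a difference of 0.45 ± 0.099 (adjusted p = 0.174). The guanylate-binding protein gene Gbp3 fell by 0.98 and 0.51, a difference of 0.46 ± 0.109 (adjusted p = 0.196). At the other end, Irgm1, an immunity-related GTPase gene, fell by 0.41 and 0.38 with a difference of 0.03 ± 0.091, and Ifit1 fell by 0.43 and 0.34 with a difference of 0.09 ± 0.095. Mx1, the close relative of Mx2, fell by 1.34 in APC-intact cells at under 1.5 CPM and had -0.25 ± 0.196 in APC-deleted cells, a difference of 1.10 ± 0.281 (adjusted p = 0.265).

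**Figure D3:**
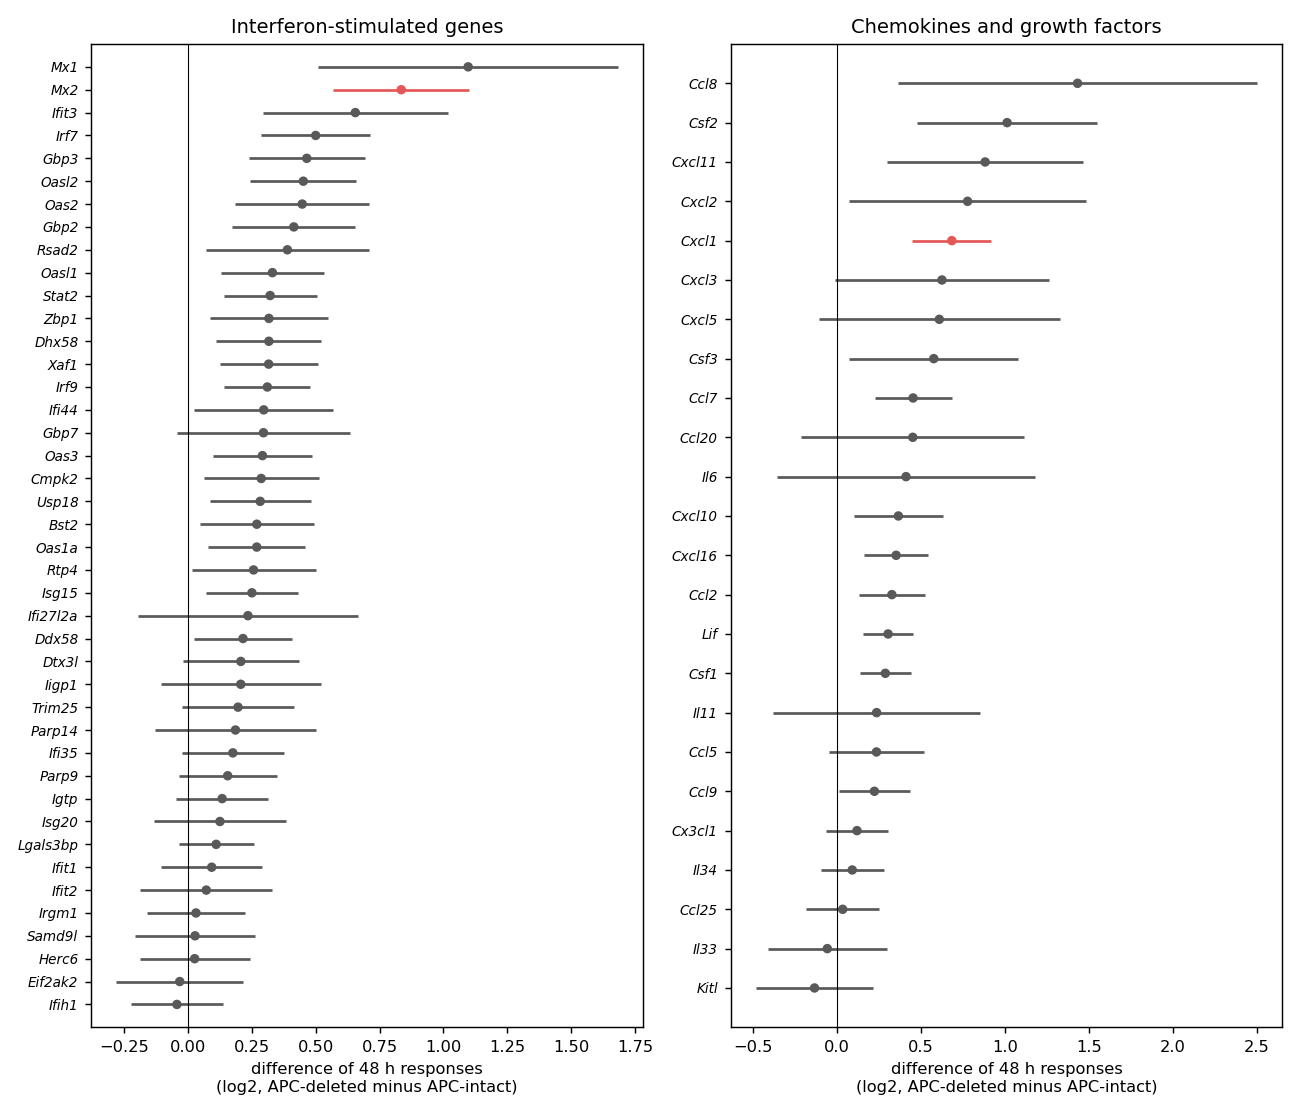
Difference of 48 h responses (log2, APC-deleted minus APC-intact) with 95% intervals for 42 of the 43 interferon-stimulated genes and 24 chemokine and growth factor genes, with called genes in red. Points lie right of 0 for 40 of 42 and 22 of 24 genes, while only Mx2 and Cxcl1 were called.

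The 3 lists hold 93 genes with none in common, and 87 of the 93 differences were positive. DESeq2 called 5 of the 24 chemokine, 5 of the 26 NF-kB and 6 of the 43 interferon genes, all higher in APC-deleted cells, against 41 of 12986 genes (0.316%) overall. These lists were chosen with results of these data known, so the counts describe the samples and test nothing about the lists. MHC class I and antigen processing genes fell in 12 of 20 in APC-intact and 7 of 20 in APC-deleted cells, against 7.54% and 6.49% of all genes tested. The list had medians of -0.29 and -0.14 and a median difference of 0.15 (0.06 without APC-deleted 48 h replicate 2). H2-T23, a class Ib gene whose reads can be shared within the H2 family, fell by 0.70 and 0.33, and its difference was 0.37 ± 0.104 (edgeR adjusted p = 0.370). The beta-2 microglobulin gene B2m did not differ detectably (0.00 ± 0.096, 95% interval -0.20 to 0.20).

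**Figure D4:**
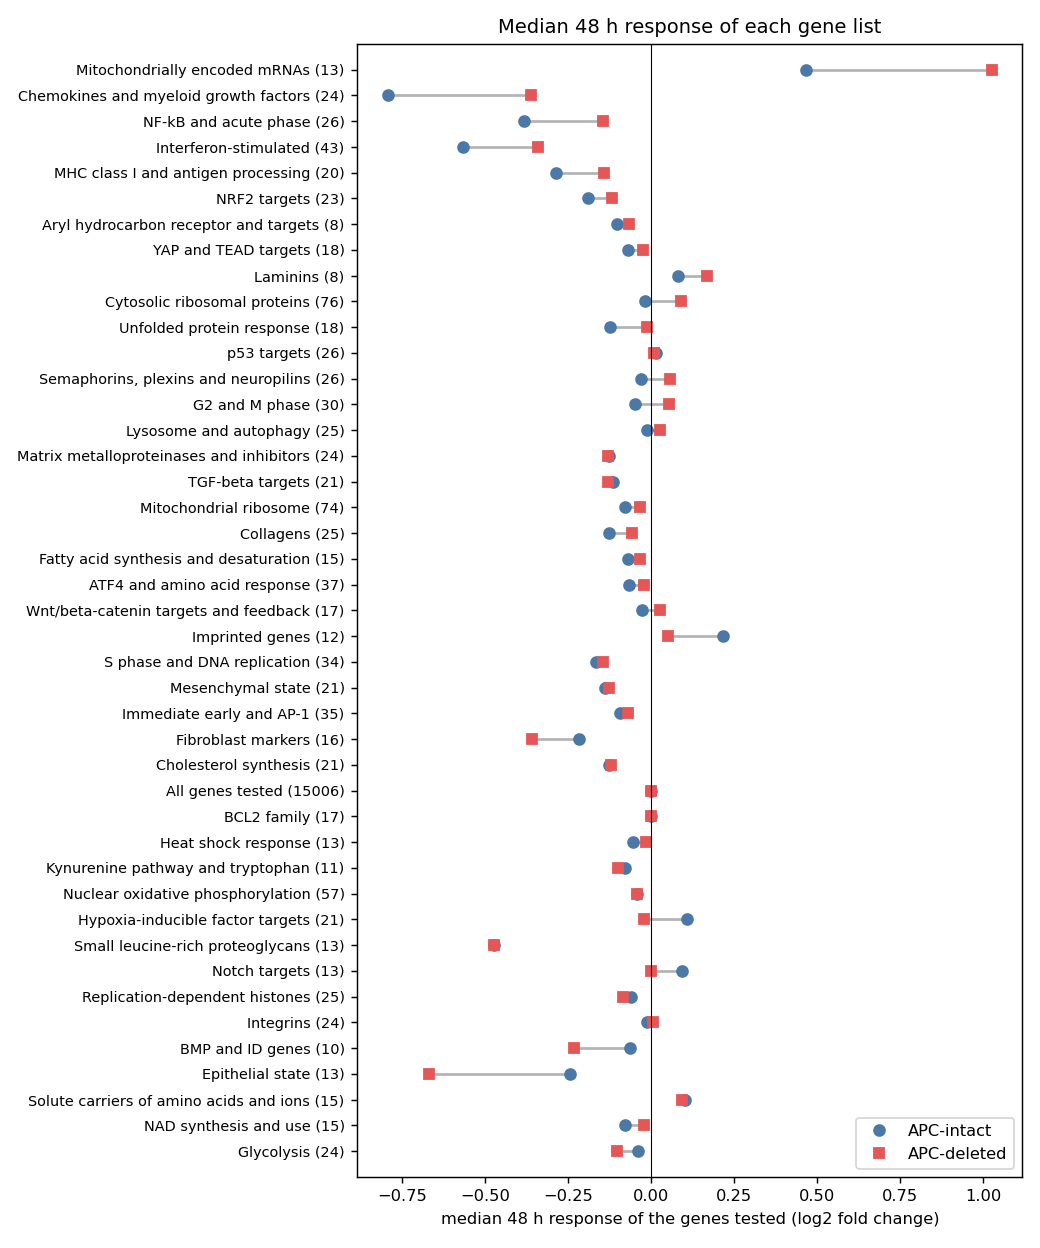
Median 48 h response (log2 fold change) of 42 gene lists of at least 8 tested genes, and of all genes tested, in APC-intact (circles) and APC-deleted cells (squares), ordered by the median difference with the number of tested genes in brackets. Mitochondrial mRNAs are at the top (0.47 and 1.03), followed by the chemokine, NF-kB and interferon lists, which are less negative in APC-deleted cells.

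Some genes had among the strongest responses in both lines with differences that were not called. Gpr56, an adhesion G protein-coupled receptor gene, had 2.72, 2.90 and 2.52 CPM in untreated and 9.88, 8.71 and 8.71 CPM in 48 h APC-intact libraries. Across APC-deleted libraries it was 3.01, 3.20 and 4.01 CPM untreated and 18.5, 18.4 and 17.9 CPM at 48 h. All treated libraries were above all untreated ones, and treated APC-deleted libraries were at about double the treated APC-intact level. Gpr56 rose by 1.75 and 2.42, and the difference was 0.68 ± 0.129 (95% interval 0.41 to 0.95, edgeR adjusted p = 0.105). Without APC-deleted untreated replicate 3, which was the highest of its group, the difference was 0.81 and was called (adjusted p = 0.0152).

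Inmt, a methyltransferase of tryptamine and related amines, fell by 1.68 and 1.49, with a difference of 0.19 ± 0.197 (95% interval -0.23 to 0.60). Angptl7, an angiopoietin-like gene that overlaps Mtor on the other strand, fell by 1.43 and 1.26, with a difference of 0.16 ± 0.101. Cdsn, which encodes corneodesmosin, rose by 1.52 and 1.71, with a difference of 0.19 ± 0.180. Car6, a secreted carbonic anhydrase gene, rose by 0.85 and 1.12, with a difference of 0.28 ± 0.102 (edgeR adjusted p = 0.565). None of these 4 differences was called, and each 95% interval lay within 2-fold.

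Pim1, a serine/threonine kinase gene downstream of cytokine receptors, was the 1 gene called in opposite directions. It had 64.2, 58.3 and 60.6 CPM in untreated and 53.3, 46.1 and 53.4 CPM in 48 h APC-intact libraries. The APC-deleted line had 62.0, 74.0 and 71.6 CPM untreated and 81.8, 87.2 and 77.7 CPM at 48 h. Treated and untreated libraries did not overlap in either line. It fell by 0.26 (edgeR adjusted p = 0.0342) and rose by 0.25 (adjusted p = 0.0418), and the difference of 0.51 ± 0.109 was not called over all genes (adjusted p = 0.161).

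Among genes with a lower response in APC-deleted cells, Egln3 was nearest to the threshold. It encodes an oxygen-sensing prolyl hydroxylase that is itself induced by hypoxia-inducible factors. Its level was 108, 107 and 108 CPM in untreated and 114, 119 and 115 CPM in 48 h APC-intact libraries. APC-deleted cells had 124, 113 and 124 CPM untreated and 96.4, 94.0 and 102 CPM at 48 h. Treated libraries were the higher in APC-intact and the lower in APC-deleted cells, with no overlap in either line. Egln3 fell by 0.30 in APC-deleted cells and had 0.11 ± 0.053 in APC-intact cells, a difference of -0.41 ± 0.075 (edgeR adjusted p = 0.0926). Bnip3, a mitophagy receptor gene, rose by 0.27 in APC-intact cells and had -0.22 ± 0.080 in APC-deleted cells, and Pdk1, a pyruvate dehydrogenase kinase gene, rose by 0.20 and had -0.09 ± 0.046. Of the 21 hypoxia-inducible factor targets, 9 had a positive and 12 a negative difference, with a median of -0.02. Among all genes tested 51.2% of differences were positive. An unadjusted p under 0.05 was found for 6 negative and 1 positive differences of the list, against 3.09% and 3.91% of all genes tested. None of the 21 passed edgeR's adjusted threshold, whereas DESeq2 called 3 of the 21 lower and 0 higher in APC-deleted cells. The shares of DESeq2 over all genes were 0.116% lower and 0.316% higher.

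Among genes of the pathways that the design names, edgeR called no difference. In the kynurenine and tryptophan list, 0 of 11 tested genes were called and 0 had an unadjusted p under 0.05, with a median difference of 0.00. For the aryl hydrocarbon receptor gene Ahr the difference was 0.19 ± 0.099 (95% interval -0.02 to 0.39), and the amino acid transporter gene Slc7a5, which carries tryptophan, had -0.07 ± 0.073. In the list of Wnt targets and feedback genes 0 of 17 were called and 5 had an unadjusted p under 0.05, 3 positive and 2 negative, against 7.00% of all genes tested. Axin2, a feedback gene of beta-catenin, had 5.61, 4.62 and 5.26 CPM in untreated and 5.80, 5.57 and 5.39 CPM in 48 h APC-intact libraries. For APC-deleted cells the values were 8.75, 9.26 and 8.89 CPM untreated and 7.32, 8.07 and 7.80 CPM at 48 h. Axin2 was higher in every APC-deleted library, and its difference of -0.33 ± 0.130 was not called (edgeR adjusted p = 0.627). Lef1, a partner of beta-catenin, had a difference of 0.32 ± 0.084 in the other direction (adjusted p = 0.327).

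In the proliferation, ribosome, proteoglycan and NRF2 lists edgeR called 0 differences. For comparison, 7.54% of all genes tested fell in APC-intact and 6.49% in APC-deleted cells. S phase genes fell in 16 of 34 in APC-intact and 12 of 34 in APC-deleted cells, and their median difference was 0.01. Rrm2, a subunit of ribonucleotide reductase, fell by 0.32 and 0.31, with a difference of 0.01 ± 0.072. Over all genes tested, 51.2% of differences were positive and 7.00% had an unadjusted p under 0.05 by edgeR. G2 and M phase genes had 25 of 30 positive differences with a median of 0.07, 5 of them at an unadjusted p under 0.05. Cytosolic ribosomal protein genes had 65 of 76 positive differences with a median of 0.08. Without APC-deleted 48 h replicate 2 that median was 0.0085. Small leucine-rich proteoglycans fell in 6 of 13 in each line, with a median of -0.47 in both. NRF2 targets fell in 11 of 23 and 6 of 23, with 17 of 23 positive differences and a median difference of 0.13. Nqo1, a quinone reductase gene of that list, fell by 0.43 and 0.31 (difference 0.12 ± 0.072).

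Messenger RNAs of the mitochondrial genome had the largest median difference of the lists with at least 8 tested genes. The 13 differences were all positive with a median of 0.71, yet edgeR called 0 and 4 had an unadjusted p under 0.05. Among all genes tested 51.2% were positive, and 3.91% were positive with an unadjusted p under 0.05. The summed level of the 13 mRNAs was 2342, 2754 and 2803 CPM in untreated and 3109, 2684 and 2965 CPM in 48 h APC-intact libraries. In the APC-deleted line the level was 1912, 1344 and 2599 CPM untreated and 3710, 4474 and 2950 CPM at 48 h. APC-deleted libraries spread most within their groups, and treated APC-deleted replicate 2 was the highest and untreated replicate 2 the lowest. Without that treated library the median difference was 0.42. mt-Cytb, the cytochrome b gene, rose by 0.74 and 1.60, with a difference of 0.86 ± 0.296 (edgeR adjusted p = 0.546), whereas mt-Co1 had 0.32 ± 0.320 (adjusted p = 0.898). The 57 nuclear genes of oxidative phosphorylation had a median difference of 0.00, with 0 called.

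**Figure D5:**
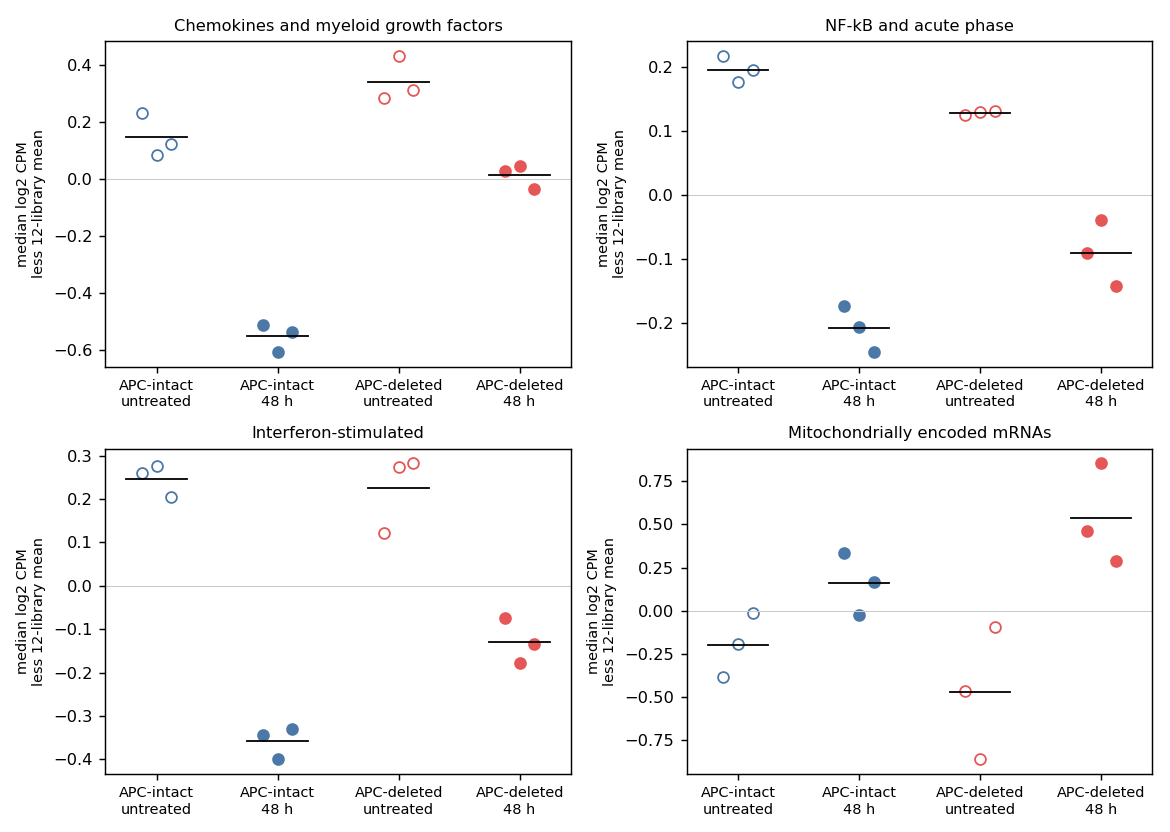
Median log2 CPM of the genes of 4 lists, less each gene's mean over the 12 libraries, with 1 point per library, open for untreated and filled for 48 h, and a bar at the mean of 3. Treated libraries of the lines do not overlap for the chemokine, NF-kB and interferon lists. Untreated libraries overlap for the interferon list only among these, with APC-deleted cells the higher for chemokines and the lower for NF-kB genes. The mitochondrial mRNAs spread most, from -0.86 to 0.85.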

How the data were processed

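RNA sequencing of 18 MC38 libraries was deposited as whole-number counts per gene that the authors made. STAR and HTSeq are the tools, and mm10 the build, per the submitters' processing notes. Versions, the strand setting and the annotation release are not given in the sources used here. The RPKM that the authors deposited beside the counts were not used here. Between 22.9 and 25.5% of each library's reads were in entries without a gene name, which were left out.

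Genes kept by filterByExpr entered edgeR 4.0.16 (R 4.3.3) as one quasi-likelihood model of all 18 libraries, with a term for each group, TMM scaling and robust dispersion. Benjamini-Hochberg adjustment ran over every gene tested, with a threshold of 0.05. The difference was the contrast of the 48 h responses. CPM use gene counts and TMM factors, log2 CPM a prior count of 2, and 95% intervals the SE and t quantile of the model. Depth over all 18 libraries was 71970499 to 111948430 gene counts. Intervals include no error beyond read counting and variation among libraries.

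The comparison, the 45 gene lists, the marker lists and the naming rule were chosen with earlier results of these data known. The rule named, among called genes of at least 5 CPM with an assigned symbol, the 15 largest differences in each direction, genes called in opposite directions and up to 4 called per list, plus Tdo2 and Apc. Of 71 named genes checked, 10 overlap another tested gene: Timp1, Timp2, Irf1, Cxcl16, Irf7, Angptl7, Psmb10, Cxcl10, Tap1 and Bcl3. Mitochondrial, H2, Saa and Ifit3 genes can share reads with copies elsewhere.

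The alternatives were DESeq2 1.42.0, DESeq-style size factors in edgeR, no filter on low counts, a filter at a mean of 1 CPM, a replicate block, only the 12 libraries compared and leaving out each library. Steps were tested on simulated data. One interferon-stimulated gene enters the list counts and is not reported here by itself. Promoters came from a RefSeq table (GRCm38.p6), and figures used Python 3.11.15 and matplotlib 3.10.9.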

Additional observations from a re-analysis of the deposited data

Results flagged for a closer look

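The 48 h response differed between APC-intact and APC-deleted cells, by edgeR's test of the difference itself, for Mx2 (0.83 on the log2 scale), Cxcl1 (0.68), Bcl2l15 (0.59) and Timp1 (-0.49). In the 3 libraries of each group, Cxcl1 fell in both lines, Mx2 and Bcl2l15 fell in APC-intact cells and were not called in APC-deleted cells, and Timp1 rose in APC-intact cells and was not called in APC-deleted cells. Their adjusted p-values ran from 0.0361 to 0.0452.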

How the results depend on the processing

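The count of genes whose response differed between lines (4 by edgeR, 3 higher and 1 lower in APC-deleted cells) was 56 with DESeq2 (41 higher, 15 lower), 14 with no filter on low counts (10 higher, 4 lower) and 0 with only the 12 libraries compared (0 higher, 0 lower). A filter at a mean of 1 CPM gave 5, of which 2 were lower, and DESeq-style size factors gave 4. Leaving out each library in turn gave 0 to 3 calls, with 0 to 3 higher and 0 to 1 lower. At most 2 of the calls in any such fit were among the 4 genes. The cause of these changes was not tested. The same omissions gave 822 to 2845 calls for the APC-intact and 882 to 2816 for the APC-deleted 48 h response. The 4 differences kept their sign under every alternative, with adjusted p from 5.55e-06 to 0.250 for Mx2, 5.17e-05 to 0.265 for Cxcl1, 0.000105 to 0.352 for Bcl2l15 and 5.17e-05 to 0.265 for Timp1. Differences near 0 changed sign for Rrm2 (-0.0060 with the filter at 1 CPM, -0.0366 to 0.0560 without 1 library), B2m (0.0033 with DESeq-style size factors, 0.0133 with 12 libraries, 0.0037 with DESeq2, -0.0977 to 0.0513 without 1 library) and Irgm1 (-0.0127 to 0.0714 without 1 library). Correlations of deviations from the group means showed no sign of pairing by replicate number. The 18 same-numbered pairs had correlations of deviations from -0.088 to 0.086, and differently numbered pairs from -0.115 to 0.102. Such correlations cannot show whether samples were handled together. With the replicate block 3 genes were called, 2 of them higher, and Bcl2l15 was lost (0.59, adjusted p = 0.0738). Under the block the edgeR adjusted p was 0.0225 for Timp1 and Cxcl1 and 0.0237 for Mx2. It gave 2173 calls for the APC-intact and 1801 for the APC-deleted 48 h response, against 1703 and 1653 without it. Whether a block belongs in the model was not tested. At this depth Tdo2 gave too few counts to bound the difference of its responses within 2-fold.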
